A study of Mus musculus with 2 samples.

Results

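Krüppel-like factors are DNA-binding proteins of the zinc finger family, and 8 of their genes (Klf2, Klf3, Klf4, Klf5, Klf6, Klf9, Klf10 and Klf13) were followed by symbol through 2 single-cell libraries of mouse colon. The files listed 31053 genes, 17 of them Klf genes. These 8 were chosen by their measured expression in these same libraries, so their overall abundance is a description and no finding. They held between 722 (Klf10) and 8130 (Klf6) unique molecular identifiers (UMIs, each marking 1 captured RNA molecule) over all cells kept. Among the 9 Klf genes not chosen, Klf7 came highest with 919 UMIs and Klf11 next with 301, while Klf17 had 0. Klf7 thus lay above Klf10, and abundance alone did not set the choice.

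Both groups were wild-type C57BL/6 mice with no transgene named. One library was made from colon after 10 mg/kg of THC (Δ9-tetrahydrocannabinol, a cannabinoid of the cannabis plant), the other from colon after vehicle control, and the comparison asks how the cannabinoid bears on colon cells. The number of mice behind a library, their age, their sex and the dosing schedule remain not given in the sources used here. With 1 library per group there was no replicate and no test, and differences could not be set against a spread between mice. Intervals are exact 95% Poisson intervals of a count, exact Clopper-Pearson intervals of a share, or exact conditional Poisson intervals of a ratio. They cover counting error only.

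Cells were barcodes with at least 1000 UMIs, at least 200 genes and under 10% mitochondrial UMIs. This left 395 THC cells (median 8529 UMIs) and 629 vehicle cells (median 7102 UMIs), and no cell barcode was kept in both libraries. The THC matrix listed 737280 barcodes and the vehicle matrix 973, so the first had not been reduced to cells before deposit. The mitochondrial limit took out 258 THC and 296 vehicle barcodes. Clustering, from which all Klf and Sp genes were left out, gave 22 clusters, and marker genes named 13 cell classes and left 1 cluster unnamed. Names were rebuilt here and are written "X-like". Of the 9 B cell markers, 10 fibroblast markers, 13 epithelial markers and 9 smooth muscle markers, each had UMIs in its own class in both libraries. These markers also named the classes, so this is no independent check. All B cell and smooth muscle markers were highest in their own class. In THC and vehicle, 6 and 8 of the fibroblast markers and 12 and 10 of the epithelial markers were. Of 10 dendritic markers, 5 and 6 were.

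Members of the family bind GC-rich boxes and CACCC boxes through their carboxy-terminal zinc fingers and either activate or repress the genes beside them. In vessels, Klf2 and Klf4 are known as factors induced by blood flow, and Klf2 also keeps lymphocytes quiescent and circulating. In the gut lining, Klf5 is known from dividing crypt cells and Klf4 from differentiated surface and goblet cells.

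The promoters of Klf2, Klf4 and Klf6, the genes on which the differences below turn, themselves hold such boxes. The lines give the 250 bases before each start site as RefSeq lists it on GRCm38.p6, 5′ to 3′ on the gene's strand, with every GC box (GGGCGG) and CACCC box, on either strand, in capitals. The windows lie at chr8:72318812-72319061 (Klf2, plus strand), chr4:55532476-55532725 (Klf4, minus strand) and chr13:5861239-5861488 (Klf6, plus strand).
Klf2: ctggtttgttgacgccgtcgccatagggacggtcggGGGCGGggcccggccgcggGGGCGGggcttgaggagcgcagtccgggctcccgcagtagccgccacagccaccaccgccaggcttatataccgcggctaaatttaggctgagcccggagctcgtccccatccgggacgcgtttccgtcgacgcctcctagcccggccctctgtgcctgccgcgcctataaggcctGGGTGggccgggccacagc
Klf4: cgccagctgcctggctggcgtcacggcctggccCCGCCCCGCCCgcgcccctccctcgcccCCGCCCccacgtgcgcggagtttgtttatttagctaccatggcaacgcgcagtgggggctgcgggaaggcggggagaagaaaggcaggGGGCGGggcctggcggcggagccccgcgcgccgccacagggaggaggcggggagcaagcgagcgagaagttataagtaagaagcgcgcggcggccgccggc
Klf6: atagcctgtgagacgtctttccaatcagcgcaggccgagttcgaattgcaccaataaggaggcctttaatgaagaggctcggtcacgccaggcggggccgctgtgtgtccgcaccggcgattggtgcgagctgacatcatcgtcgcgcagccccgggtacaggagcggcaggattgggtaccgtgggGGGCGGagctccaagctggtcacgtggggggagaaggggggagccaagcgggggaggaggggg
Klf2 had 2 GC boxes and 1 CACCC box, Klf4 had 4 GC boxes and no CACCC box, and Klf6 had 1 GC box. Of all 32851 windows of this length in the table, 32.7% held a GC box and 52.0% a CACCC box, and 8.47% held 3 or more GC boxes. A match is a run of letters and not a site shown to be bound. Windows were found for 6 of the 8 genes, and those of Klf5 and Klf10 are not shown.

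Levels are given as CPM, a gene's UMIs per 1000000 UMIs summed over the cells of a class, and are compared between classes and libraries but not between genes. They are described for the 6 classes that reached 20 cells per library, namely fibroblast-like, epithelial-like, goblet-like, B-like, T-like and smooth muscle-like cells. The T-like class is mixed. It joined a cluster led by Ccl5, Cd7 and Cd3e (23 THC and 31 vehicle cells) and one led by Il5, Ccl1 and Il4 (4 and 9 cells). The latter also had Il13 and Gata3, but no T cell marker, among its 10 leading genes. Values for smaller classes are named with their cell numbers. In CPM, fewer molecules per cell and a larger total of other molecules cannot be told apart.

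**Figure D1:**
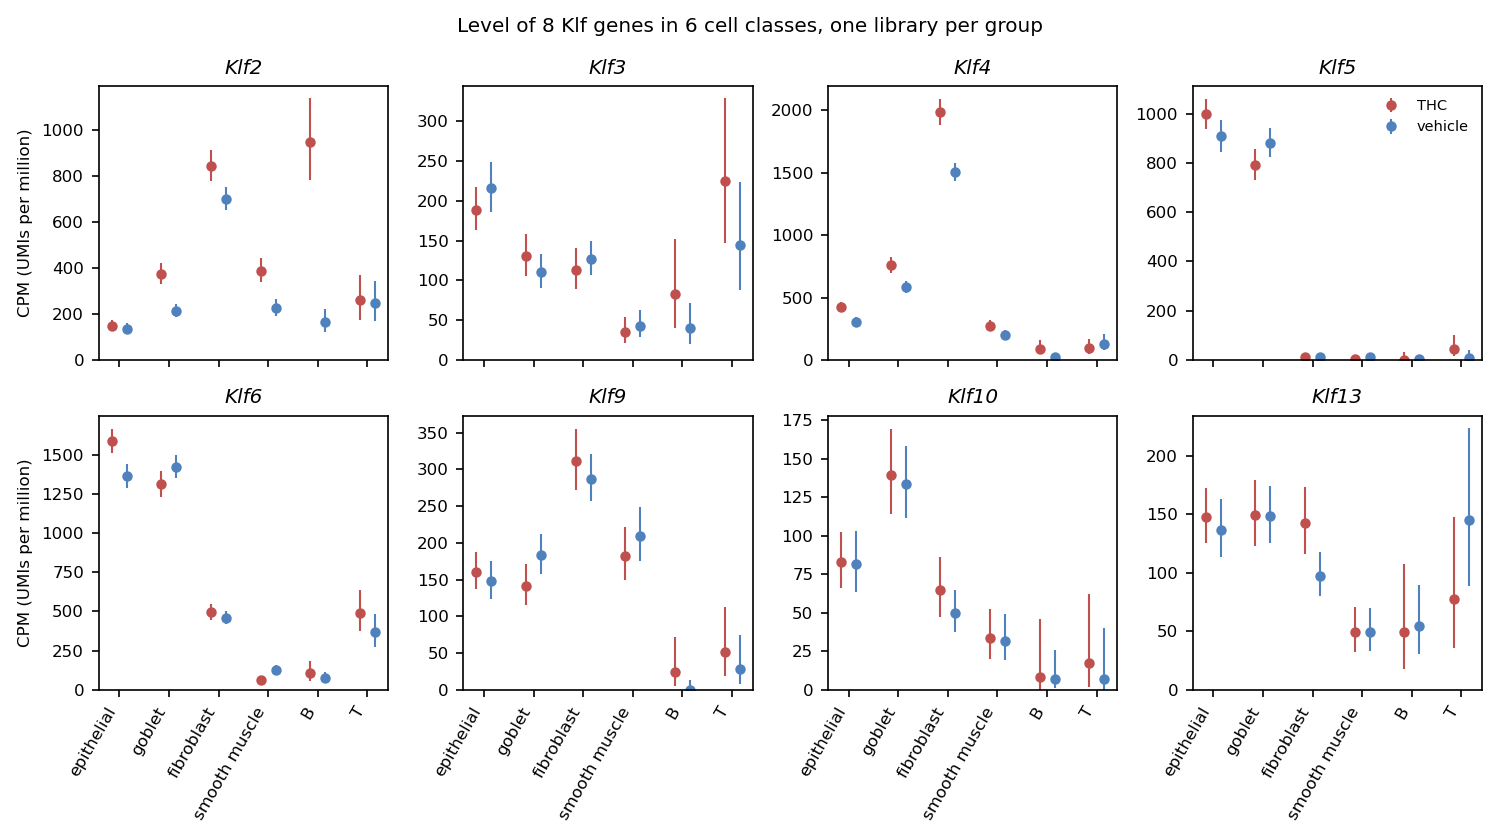
CPM (y axis, linear, from 0, with its own scale in each panel) of each Klf gene in the 6 classes (x axis), with the THC library in red and the vehicle library in blue; bars are exact 95% Poisson intervals. Klf5 stood at 791 to 996 CPM in the epithelial-like and goblet-like classes and at most at 43.2 CPM in the other classes, and Klf4 was highest in fibroblast-like cells in both libraries.

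Klf4, a factor that holds cells out of division in many epithelia, was highest in fibroblast-like cells, with 1985 CPM in the THC library (1409 UMIs) and 1504 CPM in the vehicle library (1686 UMIs). Goblet-like cells followed with 760 and 582 CPM, then epithelial-like cells with 426 and 305 CPM and smooth muscle-like cells with 270 and 200 CPM. T-like cells had 95 and 130 CPM and B-like cells 90.8 and 21.7 CPM. The order of the 6 classes was the same in both libraries, and in no pair of neighbours in it did the values of the libraries overlap. In vessels, lymphatic endothelial-like cells had 815 and 978 CPM (13 and 25 cells). Endothelial-like cells had 1166 and 743 CPM, from 23 and 32 UMIs in 4 and 7 cells. Free RNA, read from 105817 THC barcodes with 1 to 100 UMIs, held Klf4 at 325 CPM, which is above the THC levels of the smooth muscle-like, T-like and B-like classes.

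Klf4 also differed within classes. Among fibroblast-like cells, the cluster led by Has1, C3 and Gfpt2, which also had Pi16 among its leading genes, had 3035 CPM in THC and 1838 CPM in vehicle cells. The cluster led by Igfbp3, Sfrp1 and Serpina3n had 1618 and 1420 CPM, and the one led by Bmp2, Procr and Nrg1 had 934 and 784 CPM. In the epithelium, the cluster led by Muc3, Hoxb13 and Ccl20 had 623 and 502 CPM, against 112 and 129 CPM in the cluster led by the histone genes Hist1h1a, Hist1h2bj and Hist1h1b. The cluster led by Fabp6, Reg3b and Car1 lay between them, at 323 and 193 CPM. It also had the differentiated colonocyte genes Aqp8, Car4 and Krt20 among its leading genes. The high and the low cluster were thus the same in both libraries. Of the smooth muscle-like cells, those led by Hhip, Actc1 and Ctxn1 had 1162 and 568 CPM, and those led by the contractile genes Actg2, Des and Cnn1 had 78.9 and 85.6 CPM.

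Klf2, the flow-induced and quiescence-linked factor, was highest in the few endothelial-like cells, at 3903 CPM in 4 THC cells (77 UMIs) and 3528 CPM in 7 vehicle cells (152 UMIs). Lymphatic endothelial-like cells had 1112 and 1368 CPM, interstitial cell of Cajal-like cells (pacemaker cells of gut muscle, 11 and 10 cells) 778 and 903 CPM, and pericyte-like cells (12 and 13 cells) 648 and 797 CPM. The pericyte-like name is weak, because the class joined 2 clusters. One was led by Map3k7cl, Ndufa4l2 and Notch3 (5 and 8 cells). The other, led by Ces1d, Fibin and Cox8b (7 and 5 cells), had no pericyte marker among its 10 leading genes. Of 6 pericyte markers, 3 in THC and 2 in vehicle were highest in this class. Within the 6 larger classes, the vehicle library put fibroblast-like cells first with 699 CPM, while the THC library put B-like cells first with 949 CPM, ahead of fibroblast-like cells with 842 CPM. The order of Klf2 across classes was therefore not shared by the libraries, and its neighbours overlapped from the fibroblast-like class down to the T-like class. Epithelial-like cells were lowest, with 149 and 135 CPM, and lay below both T-like values (259 and 246 CPM). In the Ccl5-led cluster of the T-like class alone, Klf2 was at 288 and 331 CPM. Free RNA held Klf2 at 108 CPM.

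Klf5, known for driving epithelial growth, was nearly limited to epithelial cells. Epithelial-like cells had 996 CPM in the THC library (1034 UMIs) and 907 CPM in the vehicle library (791 UMIs), and goblet-like cells had 791 and 879 CPM. The unnamed cluster, in which 94.2% of cells held the epithelial marker Epcam and which was led by Chga, Gm26917 and Kcnq1, had 821 and 913 CPM (29 and 57 cells). Fibroblast-like cells had 11.3 and 12.5 CPM and smooth muscle-like cells 5.27 and 11.1 CPM. B-like cells held 0 and 1 Klf5 UMIs, and pericyte-like, endothelial-like, plasma-like and dendritic-like cells held 0 in both libraries. With the exact Poisson upper bound, the 0 allows up to 30.4 CPM in THC B-like cells and up to 187 and 85.6 CPM in the endothelial-like cells.

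Klf5 was detected in 50 of 51 THC and 53 of 60 vehicle epithelial-like cells, at medians of 20239 and 15890 UMIs per cell. In fibroblast-like cells, which served as the class that should lack it, it was detected in 7 of 91 and 14 of 153 cells, at medians of 7835 and 7142 UMIs. With every cell thinned to 1000 UMIs, 56.9% (42.2 to 70.7) and 58.3% (44.9 to 70.9) of epithelial-like cells held a Klf5 UMI, against 0% and 1.31% (0.159 to 4.64) of fibroblast-like cells. Free RNA of the THC library held Klf5 at 350 CPM, above its level in every non-epithelial class. Klf5 was present in all 3 epithelial-like clusters, at 1182 and 1132 CPM in the one led by Muc3, 715 and 708 CPM in the one led by Fabp6, Reg3b and Car1, and 1027 and 766 CPM in the one led by histone genes.

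Klf6, a widely expressed factor that responds to injury, was also highest in the epithelium, with UMIs in the other classes too. Epithelial-like cells had 1588 and 1361 CPM and goblet-like cells 1312 and 1424 CPM, and these values overlapped between libraries, so the highest class was not the same in both. Fibroblast-like cells had 496 and 459 CPM and T-like cells 492 and 369 CPM, again overlapping. Macrophage-like cells had 455 and 523 CPM (18 and 38 cells). Smooth muscle-like cells (65.0 and 129 CPM) and B-like cells (107 and 76.0 CPM) were at the bottom. Klf6 stood at 880 CPM in free RNA of the THC library, above the THC level of each of these non-epithelial classes. Between the goblet-like clusters, Klf6 was at 1746 and 1887 CPM in the one led by Zg16, Mptx1 and Reg4, and at 863 and 975 CPM in the one led by Muc2, Plet1 and Spdef. That split was present in both libraries.

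**Figure D2:**
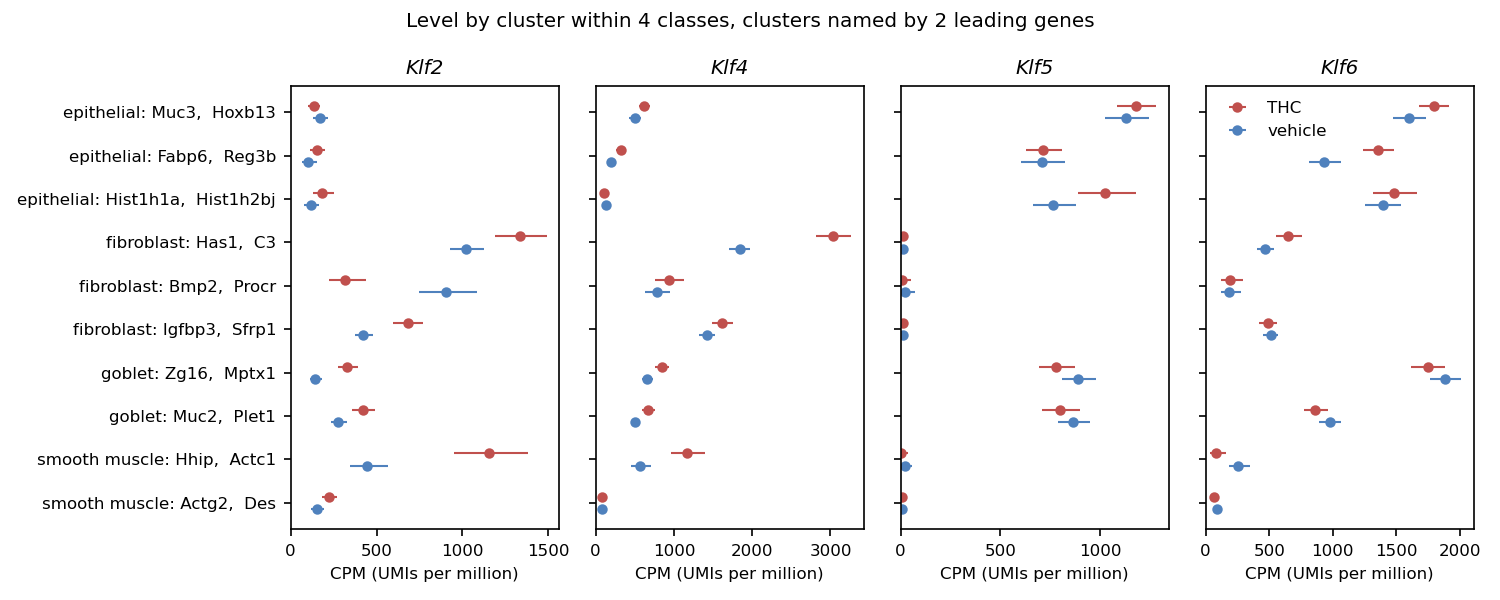
CPM (x axes, linear, from 0) of Klf2, Klf4, Klf5 and Klf6 in the clusters of 4 classes (y axis, each cluster with 2 of its leading genes), red for THC and blue for vehicle, with exact 95% Poisson intervals. Klf4 reached 3035 and 1838 CPM in the Has1 fibroblast-like cluster and 112 and 129 CPM in the histone-led epithelial-like cluster, while Klf5 was above 700 CPM in all 5 epithelial-like and goblet-like clusters.

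Klf9, which is induced by glucocorticoids and thyroid hormone, was highest in fibroblast-like cells, with 311 and 287 CPM. Smooth muscle-like cells had 183 and 210 CPM, goblet-like cells 141 and 183 CPM and epithelial-like cells 161 and 148 CPM, and these 3 classes overlapped. Klf9 was low in lymphocytes, with 51.8 and 29.0 CPM in T-like cells and 24.8 and 0 CPM in B-like cells (3 and 0 UMIs). Pericyte-like cells, the weakly named class that joined 2 clusters, had 432 and 499 CPM, from 34 and 47 UMIs. Macrophage-like cells had 0 and 23.2 CPM, and plasma-like and dendritic-like cells had 0 UMIs in both libraries, so immune classes were below the stromal ones throughout.

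Klf10, a transforming growth factor β-inducible repressor, was highest in goblet-like cells, with 140 and 133 CPM. Epithelial-like cells had 82.9 and 81.4 CPM, fibroblast-like cells 64.8 and 49.96 CPM and smooth muscle-like cells 33.4 and 31.8 CPM. The order was the same in both libraries, and overlap occurred only between the T-like (17.3 and 7.24 CPM) and B-like classes (8.25 and 7.24 CPM), which held 1 or 2 UMIs each. Lymphatic endothelial-like cells, with 207 and 178 CPM from 16 and 26 UMIs, lay above the goblet-like cells.

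Klf13, a relative of Klf9 known as a regulator of Ccl5 in T cells, varied least among classes. It was at 149 and 148 CPM in goblet-like cells, 147 and 136 CPM in epithelial-like cells, 142 and 97.2 CPM in fibroblast-like cells, and 77.7 and 145 CPM in T-like cells. B-like cells (49.5 and 54.3 CPM) and smooth muscle-like cells (49.2 and 49.3 CPM) had the least of the 6. Outside these classes, 2 small vessel classes lay above the goblet-like cells. Lymphatic endothelial-like cells had 194 and 178 CPM (15 and 26 UMIs) and endothelial-like cells 304 and 232 CPM (6 and 10 UMIs). Klf3, which represses genes by recruiting the corepressor CtBP, was at 189 and 216 CPM in epithelial-like cells and at 225 and 145 CPM in T-like cells, which overlapped. Goblet-like (130 and 110 CPM) and fibroblast-like cells (113 and 127 CPM) overlapped too, and smooth muscle-like cells had 35.1 and 42.9 CPM. Klf3 stood at 171 CPM in free RNA of the THC library, above the THC levels of these last 3 classes.

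Across the 6 classes, 5 of the 8 genes had the same highest class in both libraries: Klf4 and Klf9 in fibroblast-like cells, Klf5 in epithelial-like cells, and Klf10 and Klf13 in goblet-like cells. Of 7924 genes with at least 100 UMIs, 64.3% did so, and the members' count lies near that background. Only Klf4 and Klf5 of the 8 were also at least 4 times their own median class in both libraries, beside 21.8% of all these genes. Over the 6 classes, the profiles of Klf6 and Klf13 had Pearson correlations of 0.92 (THC) and 0.88 (vehicle), and those of Klf4 and Klf9 of 0.89 and 0.90. The profiles of Klf2 and Klf5 were opposed, at -0.73 and -0.41. These are correlations of log2(CPM + 10) over classes that share a library, given as a description.

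For each gene, the genes with the most similar class profile were found among 5043 genes, by the lower of the correlations in the 2 libraries. Klf4 was most like Tmed3, Rnase4 and Samd4b (lower correlation for Tmed3 0.96). Klf5 was most like 5730559C18Rik and Noxa1 (0.99 each). Klf9 was most like the immediate early gene Fos (0.98), then Golim4 and Tmbim1. Klf6 was most like Pdlim1, Dnmbp and Nfe2l2, Klf10 most like Cpd, Pld1 and Rin2, and Klf13 most like Pgm1, Pdlim1 and Chmp4b. Klf3 was most like Kctd5, Rac1 and Hif1a. Klf2 had the weakest partners, Sdcbp, Sh3pxd2a and Yipf5, with a lower correlation of 0.87 for Sdcbp. With 6 points per gene, high values are common.

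The THC and vehicle libraries were then compared in the 5 classes that reached 30 cells in each, for genes with 50 or more UMIs there in all. Of 40 pairs of a Klf gene and a class, 29 could be measured, and 4 were past 1.5-fold: Klf2 in goblet-like, smooth muscle-like and B-like cells, higher in THC, and Klf6 in smooth muscle-like cells, lower in THC. The share of all measured genes past 1.5-fold was 10.6% in epithelial-like cells (0 of 8 Klf genes), 9.32% in goblet-like cells (1 of 8), 9.88% in fibroblast-like cells (0 of 7), 11% in smooth muscle-like cells (2 of 5) and 20.5% in B-like cells (1 of 1). The 8 genes as a group were therefore near the background, and the values below concern single genes. Ratios are log2(THC CPM / vehicle CPM).

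**Figure D3:**
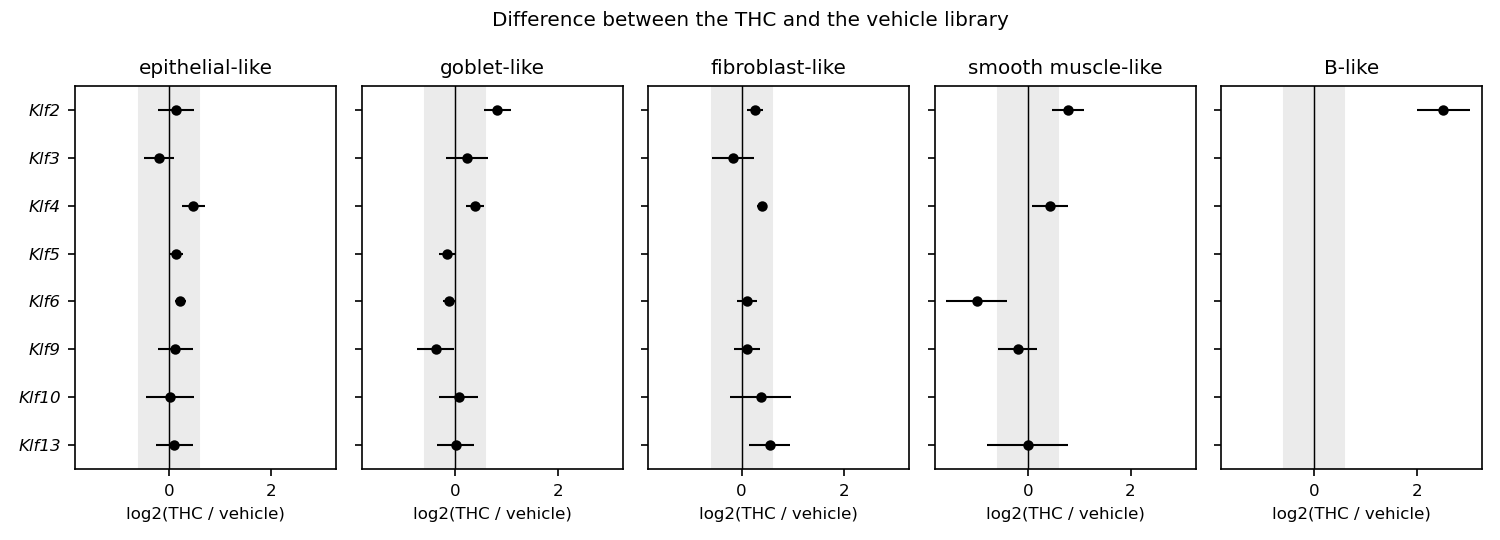
Log2 ratio of THC over vehicle CPM (x axis) for each Klf gene (y axis) with 50 or more UMIs in the class, with exact conditional Poisson 95% intervals; the grey band is the range within 1.5-fold. Klf2 in B-like cells lies farthest out at 2.51, and Klf6 in smooth muscle-like cells is the one gene past the band on the left, at -0.99.

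Klf2 in B-like cells was at 949 CPM in the THC library (115 UMIs in 37 cells) and 166 CPM in the vehicle library (46 UMIs in 72 cells). The log2 ratio was 2.51 (2.01 to 3.04), higher than that of 99.9% of the 893 genes measured in this class. The molecules sat in few cells. In the THC library 15 of 37 cells held a Klf2 UMI (40.5%, 24.8 to 57.9) and in the vehicle library 18 of 72 (25.0%, 15.5 to 36.6). The richest 3 cells held 48, 18 and 14 UMIs in THC, which is 69.6% of the total, and 14, 9 and 4 UMIs in vehicle, which is 58.7%. Without those 3 cells in each library, an alternative chosen after seeing the data, the levels were 319 and 73.4 CPM and the log2 ratio was 2.12. The Poisson interval leaves out this variation between cells and is too narrow.

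At 1000 UMIs per cell, 29.7% (15.9 to 47.0) of THC and 15.3% (7.88 to 25.7) of vehicle B-like cells held a Klf2 UMI, and these intervals overlap. Median depth was close, at 3106 and 3151 UMIs. For comparison, in the unnamed epithelial cluster, where Klf2 was at 74.8 and 97.5 CPM, 12 of 29 and 23 of 57 cells held a UMI at medians of 18753 and 12005 UMIs. Free RNA, which could be read in the THC library only, held Klf2 at 108 CPM (86.3 to 133). The THC B-like level lay above it, while the vehicle interval, 122 to 222 CPM, overlapped it. Markers of vessel cells were nearly absent from the B-like cells: of 10 endothelial markers, only Pecam1 was found in THC (7 UMIs), Pecam1 and Egfl7 in vehicle (9 UMIs together), and Cdh5, Kdr and Plvap were at 0 in both. All 10 fibroblast markers were at 0 in both. Other lists were not at 0. Epithelial markers summed to 90.8 and 105 CPM (11 and 29 UMIs) and smooth muscle markers to 74.3 and 57.9 CPM (9 and 16 UMIs). T cell markers summed to 49.5 and 50.6 CPM (6 and 14 UMIs). The part of these 3 lists in the Klf2 difference was not tested. Plasma cell markers summed to 338 CPM in THC and 644 CPM in vehicle (41 and 178 UMIs), and without the 5 vehicle cells that held 10 or more of these UMIs the log2 ratio of Klf2 was 2.50.

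Other genes differed in the same B-like cells. The cycling genes Mki67 and Top2a had 0 UMIs in THC and 34 and 30 UMIs in vehicle, in 7 of the 72 vehicle cells. Without these 7 cells, likewise chosen after seeing the data, vehicle Klf2 was 172 CPM and the log2 ratio 2.46 (1.92 to 3.04). Of the immediate early genes, a list of fast stimulus-response genes, 12 of 17 were measured in B-like cells, with 2 past 1.5-fold higher, Jund (165 and 174 UMIs, log2 ratio 1.11) and Fos (35 and 42 UMIs, 0.93), and 2 lower, Egr1 (31 and 299 UMIs, -2.08) and Egr3 (11 and 41 UMIs, -0.71). One vehicle cell held 72 of the 299 Egr1 UMIs. The glucocorticoid-responsive gene Tsc22d3 was at 239 and 127 CPM (0.92). Of the known targets of the family, Ccr7 and Tgfb1 were the only 2 of 16 with enough UMIs, at log2 ratios of 0.55 and 0.25, and none was past 1.5-fold. S1pr1, a classic Klf2 target of lymphocyte traffic, had 15 and 29 UMIs, too few to measure. The part of the cycling and stimulus-response genes in the Klf2 difference was not tested beyond the count without cycling cells.

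**Figure D4:**
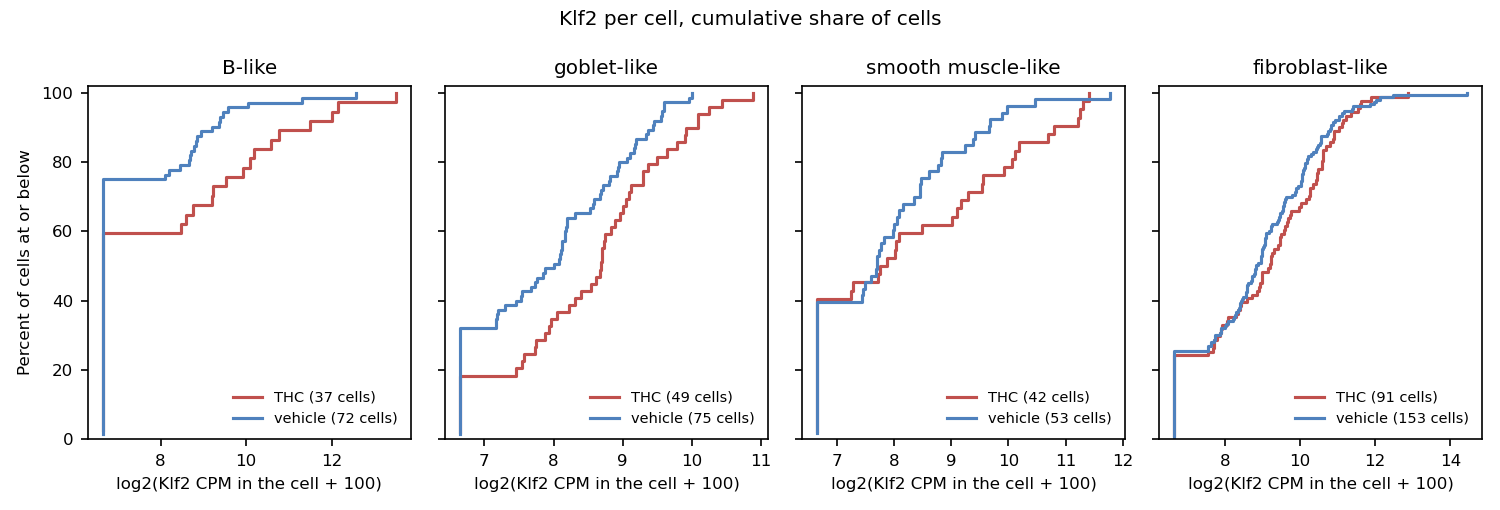
Cumulative percent of cells (y axis) at or below a Klf2 level, as log2(CPM in the cell + 100) (x axis, with its own scale in each panel), red for THC and blue for vehicle, in 4 classes. The vertical rise at the left of each curve is the share of cells with no Klf2 UMI, 59.5% of THC and 75% of vehicle B-like cells, and the THC curve runs to the right of the vehicle curve over most of the B-like and goblet-like panels.

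In goblet-like cells, the mucus-secreting cells of the lining, Klf2 was at 375 CPM in THC (279 UMIs in 49 cells) and 212 CPM in vehicle (213 UMIs in 75 cells), a log2 ratio of 0.82 (0.56 to 1.09). It was spread over more cells than in the B-like class: 40 of 49 and 51 of 75 cells held a UMI, and the richest 3 cells held 25.4% and 18.3% of the molecules. Both goblet-like clusters had the same direction, at 330 and 143 CPM (log2 ratio 1.20) in the one led by Zg16 and at 421 and 279 CPM (0.59) in the one led by Muc2. Thinned to 1000 UMIs, 26.5% (14.9 to 41.1) and 10.7% (4.72 to 19.9) of cells held a UMI. Endothelial markers summed to 2 and 7 UMIs, with Cdh5, Kdr and Plvap at 0 in both libraries. Enteroendocrine markers summed to 285 UMIs in THC and 103 in vehicle, of which 1 THC cell held 283 and 1 vehicle cell all but 1. Without these 2 cells the log2 ratio of Klf2 was 0.81 (0.54 to 1.07). In this class Ccnd1, a cell cycle gene among the family's known targets, was at 92.7 and 52.7 CPM (0.81), and Foxo3, an upstream factor, at 47.0 and 87.5 CPM (-0.90).

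In smooth muscle-like cells Klf2 was at 386 CPM in THC (220 UMIs in 42 cells) and 224 CPM in vehicle (141 UMIs in 53 cells), a log2 ratio of 0.78 (0.47 to 1.10). A UMI was found in 25 of 42 and 32 of 53 cells, and at 1000 UMIs per cell the shares were 19.0% and 20.8% and the log2 ratio was 0.11. The Hhip-led cluster was at 1152 and 447 CPM (15 and 20 cells) and the contractile cluster at 222 and 154 CPM (27 and 33 cells), and 1 vehicle cell held 52.2% of the 67 vehicle UMIs in the former. Klf6 went the other way, with 65.0 CPM (37 UMIs) in THC and 129 CPM (81 UMIs) in vehicle, a log2 ratio of -0.99 (-1.59 to -0.41). By cluster, Klf6 was at 79.5 and 254 CPM in the Hhip-led cells (8 and 38 UMIs) and at 61.9 and 89.8 CPM in the contractile cells (29 and 43 UMIs), where the log2 ratio of -0.54 (-1.27 to 0.18) was not past 1.5-fold. No THC cell held 5 or more Klf6 UMIs, and 6 vehicle cells did. Plasma cell markers also differed in this class, at 104 and 668 CPM, with 317 Jchain UMIs in vehicle. One vehicle cell held 355 of the 420 vehicle plasma marker UMIs, and without it the log2 ratios were 0.76 for Klf2 and -0.99 for Klf6. Fibroblast markers were at 2427 and 2635 CPM, and their part in these results was not tested. Both Klf6 levels were below that of free RNA in the THC library, 880 CPM. Of the lists, Cdkn1a, a cell cycle inhibitor, was at 73.8 and 44.5 CPM (0.73), and Mef2c, an upstream activator of Klf2, at 45.7 and 81.1 CPM (-0.83). For Cdkn1a 1 THC cell held 18 of the 42 UMIs and 1 vehicle cell 7 of the 28.

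Klf4 was above 0 in each of the 4 classes where it could be measured, but past 1.5-fold in none. The log2 ratios were 0.48 (0.26 to 0.71) in epithelial-like cells, from 442 and 266 UMIs, 0.39 (0.22 to 0.55) in goblet-like cells, 0.40 (0.30 to 0.50) in fibroblast-like cells and 0.43 (0.08 to 0.78) in smooth muscle-like cells. Over all cells Klf4 was at 657 and 535 CPM. The median ratio of all genes measured lay between -0.07 and 0.02 in these classes. In epithelial-like cells, smooth muscle markers summed to 89 and 1679 UMIs and fibroblast markers to 0 and 248 UMIs, of which single vehicle cells held 1616 and 227. Without the 1 THC and 2 vehicle cells with 10 or more such UMIs, the log2 ratio of Klf4 was 0.53 (0.30 to 0.76). The histone-led cluster, low in Klf4, took up 10 of 51 THC cells and 22 of 60 vehicle cells, and the log2 ratio was 0.36 when each cluster was given one weight for both libraries. By cluster, the ratio was 0.72 in the Has1-led fibroblast-like cells, in which 1 THC cell held 156 of 719 UMIs, 0.25 in the Bmp2-led and 0.19 in the Igfbp3-led cells. It was 1.03 (0.62 to 1.45) in the Hhip-led and -0.12 in the contractile smooth muscle-like cells. In the Hhip-led cells 1 THC cell held 49 of 117 UMIs and 1 vehicle cell 26 of 85. The richest 3 smooth muscle-like cells held 65.6% of the Klf4 UMIs in THC and 47.6% in vehicle. Without them, a choice made after seeing the data, the level was 97.5 CPM in THC and 109.5 CPM in vehicle. The epithelial-like, goblet-like and fibroblast-like levels stayed higher in THC without the richest 3 cells of each library. Among epithelial-like clusters the log2 ratio was 0.74 (0.22 to 1.28) in the Fabp6-led, 0.31 in the Muc3-led and -0.20 (22 and 35 UMIs) in the histone-led cells.

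Fibroblast-like cells held the other small differences. Klf2 was at 842 and 699 CPM (0.27, 0.11 to 0.43) and Klf13 at 142 and 97.2 CPM (0.55, 0.14 to 0.95), neither past 1.5-fold. Mesothelial markers differed in this class, at 496 and 164 CPM (352 and 184 UMIs). Without the 5 THC and 3 vehicle cells with 10 or more UMIs of mesothelial or epithelial markers, an alternative chosen after seeing the data like those above that leave out such cells, the log2 ratios were 0.30 for Klf2, 0.29 for Klf4 and 0.51 for Klf13. The fibroblast-like clusters differed in the direction of Klf2, a difference that was not tested. The Igfbp3-led cluster was at 681 and 424 CPM (0.68) and the Has1-led cluster at 1334 and 1022 CPM (0.38), while the Bmp2-led cluster was at 318 and 904 CPM (-1.51, -2.10 to -0.95). In that last cluster 1 cell held 19 of the 35 THC UMIs and 1 cell held 61 of the 113 vehicle UMIs. In the Has1-led cluster 1 cell held 101 of the 316 THC UMIs and 1 cell held 50 of the 424 vehicle UMIs. Immediate early genes were higher in THC for 14 of 17 members in fibroblast-like cells (median log2 ratio 0.17, beside 0.02 for all genes), led by Dusp1 (0.57), Fosb (0.55) and Fos (0.50), with none past 1.5-fold. Their part in the Klf2 and Klf4 values was not tested.

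The remaining members differed little in the compared classes. Klf5 was at log2 ratios of 0.14 (0.00009 to 0.27) in epithelial-like and -0.15 (-0.31 to -0.00079) in goblet-like cells, opposite in direction. Klf6 had 0.22, -0.12 and 0.11 in epithelial-like, goblet-like and fibroblast-like cells. Klf9 was at -0.38 in goblet-like cells (105 and 184 UMIs) and between -0.20 and 0.12 in the other 3 classes. Klf3 lay between -0.19 and 0.24, and Klf10 between 0.03 and 0.38. Classes below the size for comparison and the unnamed cluster had larger gaps in places. In the unnamed cluster (29 and 57 cells), most of whose cells held Epcam, Klf6 was at 902 and 1239 CPM (-0.46, -0.63 to -0.29). Klf3 was at 161 and 93.0 CPM there (0.80, 0.30 to 1.29), past 1.5-fold. Klf2 was at 353 and 162 CPM in macrophage-like cells (45 and 35 UMIs), where 1 THC cell held 28 of the 45. Klf4 was at 448 and 172 CPM in interstitial cell of Cajal-like cells (61 and 19 UMIs). There 1 THC cell held 24 of the 61 and 1 vehicle cell 13 of the 19. In the 5 and 15 dendritic-like cells Klf4 was at 563 and 101 CPM.

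Genes around the family were read as fixed lists. Of the 9 other Klf genes, Klf7 was measured in 4 classes, with log2 ratios from -0.30 to 0.19, and Klf11 in 2 (0.12 and -0.09). Among the 9 Sp genes, close relatives that bind the same GC boxes, Sp1 was lower in fibroblast-like cells (17 and 43 UMIs, -0.68) and no other measured one was past 1.5-fold. Of the 13 partners, corepressors and ubiquitin ligases, Hdac3 was past 1.5-fold in epithelial-like cells (47 and 25 UMIs, 0.66) and fibroblast-like cells (29 and 29 UMIs, 0.66), and no other was in any class. Of the 10 upstream kinases and factors, the 2 already named, Foxo3 and Mef2c, were the only ones past 1.5-fold.

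Known targets of the family lay above 0 in all 6 cases measured in epithelial-like cells (median 0.31) and in all 6 in goblet-like cells (median 0.36), beside a median of 0.01 and 0.00 for all genes. The list was not split into activated and repressed targets, so a shared sign has no fixed meaning for the family. A link to the Klf levels was not tested. Krt19, a keratin activated by Klf4, was at 2902 and 2095 CPM (0.47) and Lgals3, a galectin, at 1996 and 1492 CPM (0.42) in epithelial-like cells. In fibroblast-like cells 3 of 9 were past 1.5-fold, all higher in THC, beside 4.92% of all measured genes higher past that fold. They were Krt19 (95 and 29 UMIs, 2.37), the growth factor gene Pdgfa (36 and 26 UMIs, 1.13) and Lgals3 (112 and 92 UMIs, 0.94). For Pdgfa 1 THC cell held 13 of the 36 UMIs, and for Lgals3 1 THC cell held 29 of the 112. The Krt19 molecules were in 5 THC and 4 vehicle fibroblast-like cells. Krt19 is also 1 of the 13 epithelial markers, whose summed level in fibroblast-like cells was 376 and 135 CPM, with 7 and 13 of them detected; their part and that of the mesothelial markers in the Krt19 value were not tested. Among 7 glucocorticoid-responsive genes, Zbtb16 was past 1.5-fold in fibroblast-like cells (29 and 28 UMIs, 0.71), where 5 of the 6 measured lay above 0 (median 0.42).

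Of 8 crypt base and proliferation genes, 4 were measured in epithelial-like cells and all 4 lay below 0 (median -0.30). The whole list was at 1372 and 1432 CPM in the histone-led cluster, which held fewer of the THC cells, and higher in THC in the Muc3-led (241 and 177 CPM) and Fabp6-led clusters (159 and 114 CPM). Of 6 differentiated colonocyte genes, 3 lay above and 3 below 0. Outside the epithelium, Pcna was past 1.5-fold in fibroblast-like cells (39 and 39 UMIs, 0.66) and Cd44 in smooth muscle-like cells (31 and 54 UMIs, -0.66). None of the 7 blood and lymph vessel genes had enough UMIs in a compared class. In epithelial-like cells, Top2a, a gene of dividing cells, was at 82.9 and 166 CPM (-1.01), Aqp8, a water channel of surface colonocytes, at 46.2 and 198 CPM (-2.10), Cebpd at 152 and 299 CPM (-0.98) and Ier3 at 127 and 202 CPM (-0.67). One vehicle cell held 139 of the 173 Aqp8 UMIs, 1 held 89 of the 261 Cebpd UMIs and 1 held 58 of the 176 Ier3 UMIs, and 1 THC cell held 39 of the 48 Aqp8 UMIs. In the 232 THC and 281 vehicle barcodes over the mitochondrial limit that met the gene minimum, the 8 Klf genes had log2 ratios between -0.23 (Klf5) and 0.33 (Klf10), none past 1.5-fold.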

How the data were processed

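Colon cells of 1 THC and 1 vehicle library were profiled with the 10x Genomics 5′ kit. The authors deposited raw UMI counts per gene and barcode, made with Cell Ranger 3.0.2 per the file headers; bcl2fastq and Seurat stand in the submitters' processing notes too. No build or annotation is stated (not given in the sources used here). Gene and barcode tables carry names of other kinds. Barcodes were filtered as the report states, and scrublet in scanpy 1.11.5 marked 1 doublet per library, which was removed. Counts were scaled to 10000, with 2000 variable genes chosen over both libraries, 30 principal components, 15 neighbours and Leiden resolution 1. Klf, Sp, sex-linked, ribosomal, mitochondrial, immunoglobulin and T cell receptor genes were left out. A cluster took the class with at least 3 markers and the highest score. It stayed unnamed if another class had more markers among its 10 leading genes. The same held for a cluster low in UMIs per cell with no marker of its class among them. UMIs were summed per class and library (121202 and 276428 UMIs in B-like, 1037955 and 871949 in epithelial-like cells). TMM factors came from edgeR 4.0.16. The ratio script was tested on simulated data. Named genes are the 8 members, for each list at most the 4 with the most UMIs and every one past 1.5-fold, and the 3 most similar genes per member; a few of these are not reported here. Members and lists were chosen with earlier results of these data known. Alternatives covered filters, clustering, thinning, scaling, doublets and single cells.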

Additional observations from a re-analysis of the deposited data

Results flagged for a closer look

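Klf2 and Klf9 were past 1.5-fold in opposite directions in different clusters; the difference between clusters was not tested. Klf2 had log2 ratios, THC over vehicle, of -1.51 in the fibroblast-like cluster led by Bmp2, Procr and Nrg1 and of 2.51 in the B-like cluster led by Cd79a, Fcmr and Cd79b. Klf9 had -0.60 (-1.38 to 0.13; 23 and 52 UMIs) in the smooth muscle-like cluster led by Hhip, Actc1 and Ctxn1 and 1.39 (0.41 to 2.49; 44 and 11 UMIs) in the epithelial-like cluster led by Fabp6, Reg3b and Car1. These extremes were picked from 16 clusters measured for Klf2 and 12 for Klf9.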

How the results depend on the processing

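No paired analysis was possible because there was 1 library per group. Of 29 pairs of a Klf gene and a class, 4 were past 1.5-fold. The count was 1 with a mitochondrial limit of 5% (8 pairs measured), 2 at Leiden resolution 0.5, 7 with the libraries clustered separately, 9 with each cell thinned to 1000 UMIs and 7 with a minimum of 10 UMIs per pair. The count of genes with the same highest class, 5 of 8, was 3 with a minimum of 2500 UMIs and 3 with the libraries clustered separately. The cause was not tested, beyond fewer pairs or molecules being measured under the mitochondrial limit and thinning. Over 14 alternatives, 11 of the 29 pairs kept their sign throughout. Klf2 in B-like cells stayed past 1.5-fold in 14 of 14, from 1.45 (thinned) to 3.65 (2500 UMIs). Klf2 in goblet-like cells did in 12 of 13 (0.48 at resolution 0.5), Klf6 in smooth muscle-like cells in 11 of 12 (-0.57 at resolution 0.5) and Klf2 in smooth muscle-like cells in 10 of 12. Klf4 in epithelial-like cells ranged from 0.25 to 1.93, and in fibroblast-like cells fell as low as 0.0064 with separate clustering. With 37 and 72 B-like cells, depth leaves most Klf genes there unmeasured.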
